A study of Mus musculus with 18 samples.

Results

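Treated neurons were set against treated intermediate progenitors: the 3 libraries labelled Epi_N against the 3 labelled Epi_IP, which were 6 of the 18 libraries of the study. The members were taken from the sample titles, and differences between pairs follow the replicate number. The main test did not use this pairing, which entered as a block in alternative fits. Of 55416 genes, 29355 passed the filter on low counts and were tested. The neocortex of all 6 came from wild-type embryos of the strain C57BL/6J, taken at E14.5 and cultured as brain hemispheres under rotation for 24 h with 50 ng/mL of human recombinant EPIREGULIN. The 6 matching Ctl libraries (3 Ctl_N, 3 Ctl_IP) came from the same strain, age and culture time without the factor, and the remaining 6 were radial glia (RG) of both kinds of culture. The sources used here do not say how the populations were isolated. The labels call the 3 libraries of a group biological replicates and do not say whether embryos or hemispheres were pooled or shared between groups, so p-values measure the spread between these libraries.

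In the developing neocortex, radial glia at the ventricle divide to give intermediate progenitors, which carry the T-box factor Eomes (Tbr2), divide a few more times and produce most glutamatergic neurons. Newborn neurons leave the cell cycle, pass through a multipolar stage in the intermediate zone, and migrate along radial fibres to the cortical plate, where deep-layer neurons settle before upper-layer neurons. EPIREGULIN belongs to the EGF family of growth factors, binds the receptors EGFR and ERBB4, and signals through the ERK cascade.

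The treated step from IP to N was broad, and it was weighted towards genes that were lower in N. Of the genes tested, 3216 were called at an adjusted p under 0.05 (edgeR's quasi-likelihood test, Benjamini-Hochberg), which is 11.0%. Higher in N were 822 genes (2.80%) and lower in N were 2394 (8.16%). Beyond a 4-fold change stood 64 higher and 416 lower genes. The share of higher genes among the calls was 25.6% with TMM scaling, 19.6% under RLE scaling and 43.0% under upper-quartile scaling, which shifted the median gene by 0.11 on the log2 scale. In 3208 of the 3216 calls all 3 same-numbered pairs moved in the direction of the call, and in 3184 the N libraries did not overlap the IP libraries. Of all genes tested, 8160 did not overlap, and the direction of the pairs was not counted over them. Called genes were picked by the difference between these same libraries, so the 3208 and 3184 are not separate support for the calls. With the replicate number as a block, 4917 genes were called (1630 higher and 3287 lower), among them all 3216. Without Epi_IP replicate 2 the higher calls fell to 520. Protein-coding genes were 70.8% of the higher calls, 83.5% of the lower calls and 61.4% of the genes tested.

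The largest increases included genes of neuronal migration and axon guidance. The naming rule kept only genes whose groups did not overlap, so the lack of overlap among named genes is a condition of that rule. Pdzrn3, a ubiquitin ligase with PDZ domains (chr6:101126570-101354858, minus strand, GRCm39), stood at 7.2, 6.38 and 7.68 CPM (counts scaled to library size) in Epi_IP replicates 1 to 3 and at 115, 113 and 149 CPM in Epi_N. The groups lay far apart, and the pair differences on the log2 scale were 3.98, 4.12 and 4.26. The log2 fold change was 4.14 ± 0.19 (SE, adjusted p = 9.4e-12), the largest increase among the named genes. Robo2, a receptor for the Slit repellents (chr16:73688727-74208713, minus strand), was at 75.7, 63.2 and 72 CPM in Epi_IP and at 383, 464 and 467 CPM in Epi_N. Its log2 fold change was 2.64 ± 0.13 (adjusted p = 1.33e-11), with no overlap. Unc5d, a netrin receptor of multipolar neurons (chr8:29136745-29709664, minus strand), was at 34.2, 35.1 and 31.1 CPM in Epi_IP and at 181, 182 and 201 CPM in Epi_N. Reads of Unc5d could be shared with Svet1, a gene model inside it counted at a mean of 103 CPM, and the value is uncertain to that extent.

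The other 9 genes of the 12 largest increases were Ndst3, Glt28d2, Pcdh18, Sstr3, Sema6d, Sema3c, Fam160a1, Fzd1 and Tfap2d, with log2 fold changes from 2.20 (Tfap2d) to 2.84 (Ndst3). Ndst3, a heparan sulphate sulphotransferase, was at 11.5, 9.84 and 9.22 CPM in Epi_IP and at 77.7, 73.2 and 68 CPM in Epi_N. Sema3c, a secreted semaphorin, was at 53.3, 57.2 and 65.1 CPM in Epi_IP and at 277, 315 and 315 CPM in Epi_N. Fzd1, a Wnt receptor, was at 20.7, 22.7 and 22.3 CPM in Epi_IP and at 86.8, 106 and 112 CPM in Epi_N. In these 3 genes every N library stood more than the whole IP range above the IP libraries. Tfap2d, an AP-2 transcription factor, was the least even of them: 1.63, 1.95 and 0.121 CPM in Epi_IP and 6.87, 7.47 and 2.59 CPM in Epi_N, so that replicate 3 was low in both populations.

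The largest decreases included a progenitor regulator and genes of subplate and layer 6 neurons and of the response to low oxygen. Adm, the hypoxia-induced peptide adrenomedullin (chr7:110226868-110229027, plus strand), was at 3.19, 3.15 and 3.8 CPM in Epi_IP and at 0.044, 0.265 and 0 CPM in Epi_N, from 253 and 7 reads in all. Its log2 fold change of -4.90 ± 0.55 (adjusted p = 1.16e-06) rests on those few reads and was -6.87 without Epi_N replicate 2. Hs3st4, a heparan sulphate sulphotransferase of layer 6 neurons (chr7:123582092-123998212, plus strand), was at 110, 107 and 100 CPM in Epi_IP and at 10.3, 3.54 and 6.5 CPM in Epi_N. The fall was -3.96 ± 0.34 on the log2 scale (adjusted p = 3.71e-08). Brinp1, an inhibitor of cell-cycle progression found in neurons, was at 58.6, 54.4 and 63.2 CPM in Epi_IP and at 6.39, 1.95 and 4.38 CPM in Epi_N. In Adm, Hs3st4 and Brinp1 alike the highest N library stood well below the lowest IP library, where the naming rule required no overlap.

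The remaining genes of the 12 largest decreases were Ndufa4l2, Nxph3, Eomes, Rgs4, Cox4i2, Ndnf, Crym, Igfbp3 and Gabrd, with log2 fold changes from -4.15 (Ndufa4l2) to -3.53 (Gabrd). Of these, Nxph3 was -4.38 and Rgs4 -4.28 without Epi_N replicate 1, and Gabrd was -4.21 without Epi_N replicate 3. Igfbp3, which binds insulin-like growth factors, was at 86.1, 97.6 and 98.9 CPM in Epi_IP and at 11.1, 5.75 and 6.81 CPM in Epi_N. Crym, a thyroid hormone binding protein of deep-layer neurons, was at 13.7, 15.5 and 18.4 CPM in Epi_IP and at 1.94, 1.02 and 1 CPM in Epi_N. Ndufa4l2 and Cox4i2 are hypoxia-inducible relatives of respiratory chain subunits. Ndufa4l2 lies opposite Shmt2, which was counted at 276 CPM on average, and since the libraries carry no strand its value of -4.15 ± 0.27 is uncertain.

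**Figure D1:**
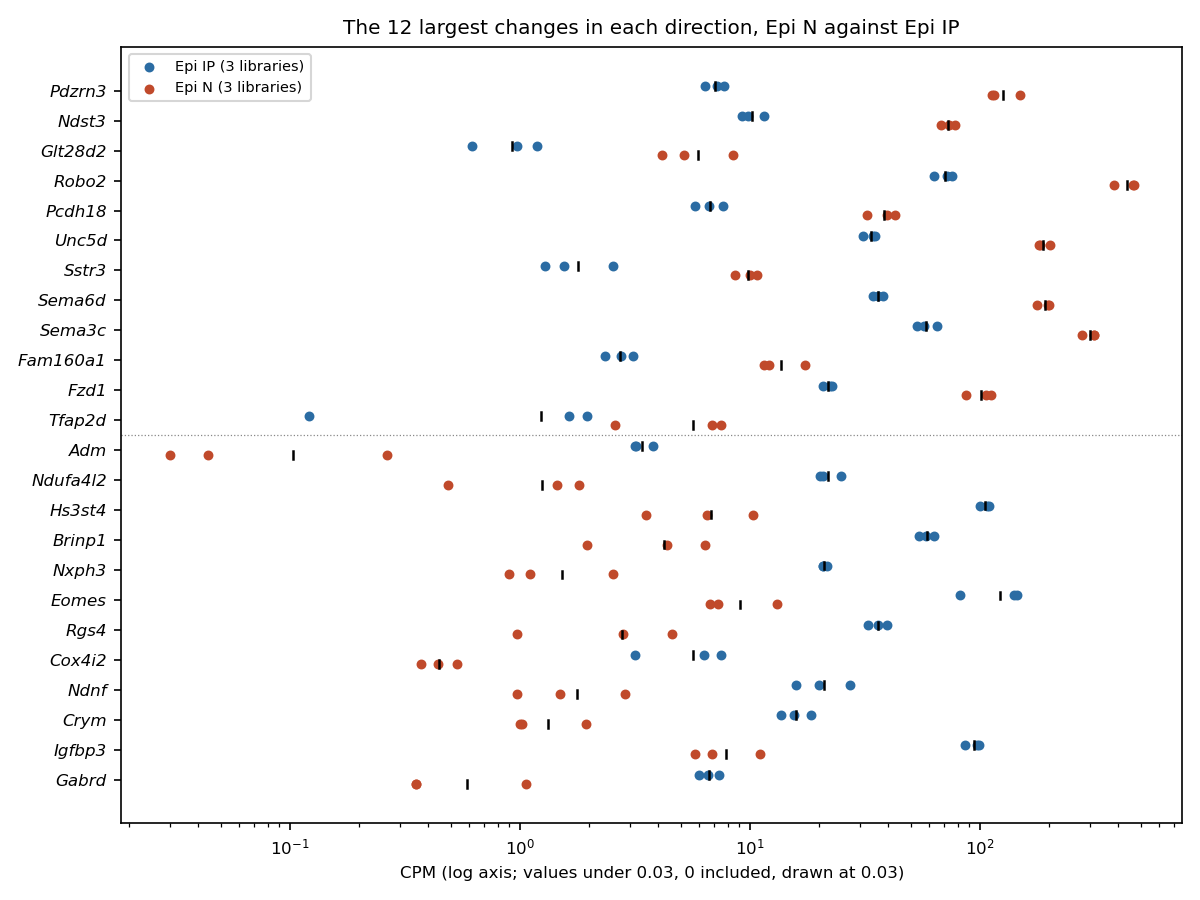
CPM of each Epi_IP and Epi_N library (points, log axis) for the 12 largest increases and the 12 largest decreases by the naming rule; black ticks are means of 3 libraries. The rule kept only genes without overlap between the populations. The genes run from Pdzrn3 at 7.2 against 115 CPM in replicate 1 to Adm with 0 CPM in Epi_N replicate 3, which is drawn at the lowest point.

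The labels were checked against markers. Eomes, the defining factor of intermediate progenitors (chr9:118307280-118315200, plus strand), was at 145, 141 and 81.9 CPM in Epi_IP and at 6.74, 7.25 and 13.1 CPM in Epi_N, with 18.6 ± 3.38 CPM (SD, n = 3) in the radial glia of the same cultures. Replicate 3 had the lowest IP and the highest N value, and its pair difference was -2.64 against -4.41 and -4.26. The log2 fold change was -3.77 ± 0.30 (adjusted p = 1.33e-08). Across 20 intermediate progenitor markers, 11 were lower in N, 4 were higher and 5 did not pass, with a median of -0.49 against 0.04 for all genes tested. Their summed level did not separate the groups, at 1539 to 1795 CPM in Epi_IP and 1541 to 1903 CPM in Epi_N. Neurog1, Kif26b and Rhbdl3 fell with Eomes. The 4 that were higher in N were the zinc-finger factor Insm1, the bHLH factors Neurod1 and Nhlh1, and the somatostatin receptor Sstr2, all known from cells about to become neurons. With the block, 6 markers were higher and 11 lower, and with upper-quartile factors 6 and 9.

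Insm1 stood at 77, 80.3 and 88.7 CPM in Epi_IP and at 226, 294 and 346 CPM in Epi_N, a log2 change of 1.82 ± 0.17 (adjusted p = 1.31e-07). Neurod1 stood at 109, 146 and 130 CPM in Epi_IP and at 217, 268 and 261 CPM in Epi_N, a log2 change of 0.95 ± 0.15 (adjusted p = 7.69e-05). Both genes belong to the list of intermediate progenitor markers, and both were higher in every N library than in any IP library. Neurog2, the proneural factor that acts before them, was at 80.6, 84.9 and 58.7 CPM in Epi_IP and at 44.1, 55.1 and 54.4 CPM in Epi_N. Its change of -0.55 ± 0.16 (adjusted p = 0.0254) was lost with upper-quartile factors (adjusted p = 0.0717) and without Epi_IP replicate 1 (0.0996), Epi_IP replicate 2 (0.146) or Epi_N replicate 1 (0.133). Neurod2 was at 1619, 1373 and 1222 CPM in Epi_IP and at 2410, 2438 and 1970 CPM in Epi_N, a log2 change of 0.69 ± 0.17 (adjusted p = 0.00805), which did not pass without Epi_IP replicate 3 (adjusted p = 0.0556). Neurod6 was at 650, 765 and 943 CPM in Epi_IP and at 860, 1134 and 1264 CPM in Epi_N; the groups overlapped, and its log2 fold change of 0.47 ± 0.19 did not pass (adjusted p = 0.139) except with the block (adjusted p = 0.00265) and with upper-quartile factors (0.0328).

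The pan-neuronal markers Tubb3 and Dcx did not pass the test between the populations. Tubb3, neuronal beta-tubulin, was at 1951, 2377 and 2453 CPM in Epi_IP and at 1840, 2253 and 2151 CPM in Epi_N, a log2 change of -0.12 ± 0.19 (95% interval -0.51 to 0.27, adjusted p = 0.801), and the groups overlapped. Dcx, the microtubule protein doublecortin of migrating neurons, was at 818, 842 and 845 CPM in Epi_IP and at 790, 910 and 793 CPM in Epi_N, a log2 change of -0.01 ± 0.15 (95% interval -0.31 to 0.29, adjusted p = 0.988). In treated radial glia Tubb3 was between 74.5 and 135 CPM and Dcx at 8.39 CPM on average, so the libraries labelled IP, like those labelled N, stood far above radial glia in these neuronal transcripts. Several markers of more mature neurons were higher in the IP libraries. Mapt, the axonal microtubule protein tau, was at 1959, 1894 and 1864 CPM in Epi_IP and at 800, 790 and 578 CPM in Epi_N, a log2 change of -1.40 ± 0.16 (adjusted p = 1.25e-06). Mef2c, an activity-responsive transcription factor of maturing neurons, was at 464, 418 and 411 CPM in Epi_IP and at 111, 100 and 68.7 CPM in Epi_N, a log2 change of -2.21 ± 0.24 (adjusted p = 6.59e-07).

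Of 26 neuron markers, 14 were lower in N, 2 were higher and 10 did not pass, with a median of -0.53. Ina, Nefl, Stmn2, Snap25, Syt1 and Gap43, which build neurofilaments, growth cones and synaptic terminals, were among the 14. Neurod2 and Myt1l were higher. With the block 4 were higher and 16 lower. The labels IP and N are therefore used below as the names of the libraries, and no level is read as that of a pure population. In bulk RNA, fewer cells of a type and less RNA per cell cannot be told apart.

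Most genes of newborn and migrating neurons were higher in N. Of 24 such genes 16 were higher, 1 was lower (Dab1, the Reelin adaptor) and 7 did not pass, with a median of 1.15. The list was chosen with earlier results of these data known. It holds Pdzrn3, Robo2, Unc5d, Sema3c and Sema6d, named above, so its count is not independent of them. Their summed level ran from 15791 to 17409 CPM in Epi_IP and from 23406 to 24774 CPM in Epi_N, with no overlap. Nrp1, a semaphorin co-receptor (chr8:129085085-129229844, plus strand), was at 143, 139 and 182 CPM in Epi_IP and at 601, 610 and 709 CPM in Epi_N, a log2 change of 2.05 ± 0.13 (adjusted p = 1.43e-09). Slc17a6, the vesicular glutamate transporter VGLUT2, was at 28.6, 34.1 and 34.5 CPM in Epi_IP and at 116, 147 and 158 CPM in Epi_N, a log2 change of 2.12 ± 0.22 (adjusted p = 5.31e-07). The abundant factor Sox11 was at 5397, 4944 and 5373 CPM in Epi_IP and at 8729, 9250 and 9844 CPM in Epi_N.

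Laminar identity genes split in opposite directions. Of 16 upper-layer genes 9 were higher in N and 3 were lower, with a median of 0.73. Their summed level was 1523 to 1556 CPM in Epi_IP and 2651 to 3194 CPM in Epi_N. In treated radial glia the sum was 2968 to 3077 CPM, so a high level of this list was not particular to N. Cux2, a homeobox factor of layers above the deep ones, was at 52.2, 34.2 and 35.3 CPM in Epi_IP and at 189, 176 and 119 CPM in Epi_N, and the POU factors Pou3f1, Pou3f2 and Pou3f3 were also higher. The 3 upper-layer genes that were lower in N were Rorb, Plxnd1 and Kitl. Of 24 deep-layer and subplate genes none was higher and 16 were lower, with a median of -1.27 (adjusted p under 0.05 in each, edgeR). This list was likewise chosen with earlier results known. It holds Hs3st4, Nxph3 and Crym, named above, so its count is not independent of them. Fezf2, which specifies subcerebral projection neurons, was at 310, 267 and 331 CPM in Epi_IP and at 126, 92.5 and 116 CPM in Epi_N. Tle4, a corepressor of layer 6 neurons, was at 198, 237 and 241 CPM in Epi_IP and at 56.5, 46.3 and 61.9 CPM in Epi_N.

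Bcl11b and Tbr1, the best-known factors of the deep-layer list, moved less. Bcl11b (CTIP2) was at 1717, 1433 and 1439 CPM in Epi_IP and at 1114, 975 and 927 CPM in Epi_N, a log2 change of -0.61 ± 0.18 (adjusted p = 0.0306). That call was lost with upper-quartile factors (adjusted p = 0.156), with the stricter filter (0.0861) and without Epi_IP replicate 1 (0.129), Epi_IP replicate 2 (0.0507), Epi_N replicate 2 (0.105) or Epi_N replicate 3 (0.118). Tbr1, a T-box factor of layer 6, was at 345, 382 and 415 CPM in Epi_IP and at 252, 307 and 283 CPM in Epi_N without overlap. Its log2 fold change of -0.44 ± 0.16 did not pass (adjusted p = 0.0958) and passed with the block (0.0157), with DESeq2 (0.0477) and in a fit of the compared groups alone (0.0165).

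Markers of other neuron types were examined in the same libraries. Of 12 Cajal-Retzius markers, which mark the Reelin-secreting cells of the marginal zone, 10 were lower in N and none was higher, with a median of -2.21. Their summed level was 324 to 525 CPM in Epi_IP and 57.5 to 69.2 CPM in Epi_N. Reln was at 207, 212 and 327 CPM in Epi_IP, at 34.1, 26.4 and 26.1 CPM in Epi_N and at 4.14 CPM on average in treated radial glia. Its log2 fold change was -3.11 ± 0.22 (adjusted p = 3.94e-09), and Epi_IP replicate 3 was the highest library. Trp73, the p53 relative that marks these cells, was at 19.9, 18.8 and 30.1 CPM in Epi_IP and at 2.16, 1.99 and 2.64 CPM in Epi_N. These markers moved with the deep-layer and mature neuron genes, and their part in those results was not tested. Of 16 interneuron markers 1 was lower in N (Npy) and 15 did not pass. Over all genes tested 8.16% were lower in N, so 1 of 16 is near the general share. Their summed level was uneven among N libraries, at 141, 232 and 39.1 CPM, against 189, 161 and 272 CPM in Epi_IP. Gad2, which makes GABA, was at 15.2, 9.31 and 14.7 CPM in Epi_IP and at 14.3, 20.3 and 2.85 CPM in Epi_N, so that the groups overlapped (adjusted p = 0.97).

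Radial glia genes were lower in N or did not pass, with 1 exception. Of 24 markers, 12 were lower in N, 1 was higher (Id4) and 11 did not pass, with a median of -0.58. Sox2, the stem cell factor, was at 19.9, 19 and 16.5 CPM in Epi_IP, at 6.52, 11.7 and 4.44 CPM in Epi_N and at 302 CPM on average in treated radial glia, a log2 change of -1.28 ± 0.25 (adjusted p = 0.00104). Hes5, the Notch effector, was at 5.72, 4.03 and 5.18 CPM in Epi_IP and at 2.11, 2.96 and 2.06 CPM in Epi_N, against 219 CPM in radial glia. Pax6 was at 53.4, 45.1 and 36.6 CPM in Epi_IP and at 28.1, 32.8 and 36.2 CPM in Epi_N and did not pass (adjusted p = 0.104), except in a fit of the compared groups with the block (0.00773). Among 27 Notch pathway genes 9 were lower in N and 1, the DNA-binding factor Rbpj, was higher. With the block 11 were lower and 3 higher.

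The cell cycle programme was lower in N. Of 64 mitosis genes 52 were lower and none was higher (edgeR, adjusted p under 0.05), with a median of -1.07. Of 60 S phase genes 35 were lower and none was higher, with a median of -0.65. Top2a, the topoisomerase that untangles chromosomes, was at 77.5, 65.7 and 49.2 CPM in Epi_IP, at 17.7, 14.4 and 13.8 CPM in Epi_N and at 744 CPM on average in treated radial glia. Its log2 fold change was -2.07 ± 0.22 (adjusted p = 4.4e-07). Mki67, the proliferation antigen, was at 53.2, 40.3 and 33.4 CPM in Epi_IP and at 12.2, 10.7 and 8.77 CPM in Epi_N, against 523 CPM in radial glia, a log2 change of -2.0 ± 0.25 (adjusted p = 4.03e-06). Both were thus nearer in level between IP and N than either was to radial glia. Mcm3, a subunit of the replicative helicase, was at 15.9, 21.4 and 15.6 CPM in Epi_IP and at 2.33, 4.38 and 2.85 CPM in Epi_N, a log2 change of -2.46 ± 0.21 (adjusted p = 2.39e-08). Pcna, the sliding clamp, was at 29.9, 38.9 and 39.5 CPM in Epi_IP and at 21.8, 29.8 and 28.5 CPM in Epi_N and did not pass (adjusted p = 0.245), except with the block (0.00789).

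Cell cycle inhibitors did not move as a block. In a list of 14 genes for D cyclins, partner kinases and inhibitors of CDKs, 2 were higher in N and 5 were lower (4 and 6 with the block). Cdkn1b, the inhibitor p27 that holds neurons out of the cycle, was at 50.6, 43.3 and 40.3 CPM in Epi_IP and at 95.5, 114 and 84.2 CPM in Epi_N, a log2 change of 1.13 ± 0.13 (adjusted p = 2.18e-06). Cdkn1a, the p53 target p21, was at 50.3, 50.1 and 54.3 CPM in Epi_IP and at 18.2, 19.9 and 20.9 CPM in Epi_N, a log2 change of -1.39 ± 0.13 (adjusted p = 1.68e-07). The other member that was higher in N was Ccnd2, at 504, 518 and 610 CPM in Epi_IP and 684, 799 and 1115 CPM in Epi_N. Of 24 p53 target genes, a list that shares Cdkn1a, Btg2 and Gtse1 with others here, 8 were lower and none was higher by the same test.

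Because the mitosis and S phase genes moved together, their promoters were read for the letters known to bind cell cycle regulators: the CHR element (TTTGAA or TTCGAA) and the NF-Y box (CCAAT) of mitotic genes, and E2F sites (TTTCCCGC, TTTCGCGC, TTTGCCGC or TTTGGCGC) of S phase genes. The window was the 250 bases before the GENCODE start on GRCm39, on both strands, over 17890 promoters. TTCGAA reads the same on both strands and was counted once. A CHR element was found in 29.7% of mitosis promoters and 15.4% of all, a CCAAT in 57.8% and 35.7%, and an E2F site in 6 of 60 S phase promoters and 2.63% of all. The genes called lower in N as a whole did not show these shares, with 12.8%, 35.2% and 2.51%. The proneural E-box (CAGATG or CAGCTG) stood in 9 of 24 newborn neuron promoters, in 33.3% of glycolysis promoters, in 23.4% of the genes called higher in N and in 22.5% of all, and the T-box motif (AGGTGTGA) in 0.803% of the genes called lower against 0.894%. For glycolysis genes the core of the hypoxia response element (ACGTG) stood in 40.0% of promoters against 18.7% of all and 19.4% of the genes called lower in N. The sequences of 4 genes that were lower in N follow, picked by hand as examples that hold the motifs. Capitals mark CHR and CCAAT boxes in Top2a (chr11:98915042-98915291, minus strand) and Cdk1 (chr10:69188769-69189018, minus strand). They mark E2F sites in Mcm6 (chr1:128287453-128287702, minus strand) and the hypoxia core in Ldha (chr7:46495013-46495262, plus strand). In Mcm6 the first capital run holds overlapping E2F sites on opposite strands, ATTGG is CCAAT on the other strand, and in Ldha CACGTG holds the core on both strands and CACGT on the other.
Top2a: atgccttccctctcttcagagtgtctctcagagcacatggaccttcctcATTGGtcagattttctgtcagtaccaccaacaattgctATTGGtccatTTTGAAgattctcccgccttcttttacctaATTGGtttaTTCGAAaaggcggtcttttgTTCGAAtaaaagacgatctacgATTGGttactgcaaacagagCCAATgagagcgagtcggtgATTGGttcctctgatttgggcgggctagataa
Cdk1: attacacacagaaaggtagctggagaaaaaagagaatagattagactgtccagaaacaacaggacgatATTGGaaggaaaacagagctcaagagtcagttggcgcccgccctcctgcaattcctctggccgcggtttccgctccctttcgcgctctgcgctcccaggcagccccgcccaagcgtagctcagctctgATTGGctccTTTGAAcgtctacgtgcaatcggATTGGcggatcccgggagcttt
Mcm6: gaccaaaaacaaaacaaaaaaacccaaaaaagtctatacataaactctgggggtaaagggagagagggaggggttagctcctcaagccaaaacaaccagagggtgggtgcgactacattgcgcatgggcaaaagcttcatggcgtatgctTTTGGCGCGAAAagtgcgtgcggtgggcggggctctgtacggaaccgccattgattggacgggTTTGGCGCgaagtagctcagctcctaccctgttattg
Ldha: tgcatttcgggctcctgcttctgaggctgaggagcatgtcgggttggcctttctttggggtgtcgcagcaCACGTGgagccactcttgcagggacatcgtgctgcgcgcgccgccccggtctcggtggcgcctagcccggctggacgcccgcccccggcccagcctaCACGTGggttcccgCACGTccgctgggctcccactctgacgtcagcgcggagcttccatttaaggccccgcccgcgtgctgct
These matches describe letters in the windows and were not tested as binding sites. The sequences of Top2a and Cdk1, kinase of mitotic entry, hold 3 and 1 CHR elements and 6 and 3 CCAAT boxes. Cdk1 also holds 1 E2F site and 1 ACGTG, and Mcm6 holds 1 CCAAT box, all left in small letters. Cdk1 was at 15.1, 13.3 and 12.9 CPM in Epi_IP and at 4.58, 3.49 and 3.54 CPM in Epi_N. Mcm6, another helicase subunit, holds 3 E2F sites and was at 29.4, 29 and 27.1 CPM in Epi_IP and at 12.4, 11.9 and 12.9 CPM in Epi_N.

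Glycolysis and hypoxia genes were lower in N with few exceptions. Of 30 members 23 were lower, 1 was higher (the growth factor Vegfa) and 6 did not pass, with a median of -0.93. Ldha, which makes lactate, was at 307, 282 and 292 CPM in Epi_IP, at 96.2, 86.3 and 83.4 CPM in Epi_N and at 812 CPM on average in treated radial glia. Its log2 fold change was -1.73 ± 0.11 (adjusted p = 1.44e-09). Aldoa, an aldolase, was at 202, 182 and 181 CPM in Epi_IP and at 95.3, 94.3 and 94.8 CPM in Epi_N, and N libraries differed by far less than the step itself. Vegfa was at 172, 161 and 166 CPM in Epi_IP and at 188, 254 and 229 CPM in Epi_N (adjusted p = 0.0438; 0.0158 with the block), and its call was absent with RLE factors, where no member was higher. Gapdh was at 37.3, 30.7 and 22.6 CPM in Epi_IP and at 37.7, 21.5 and 17.6 CPM in Epi_N and did not pass (adjusted p = 0.737).

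**Figure D2:**
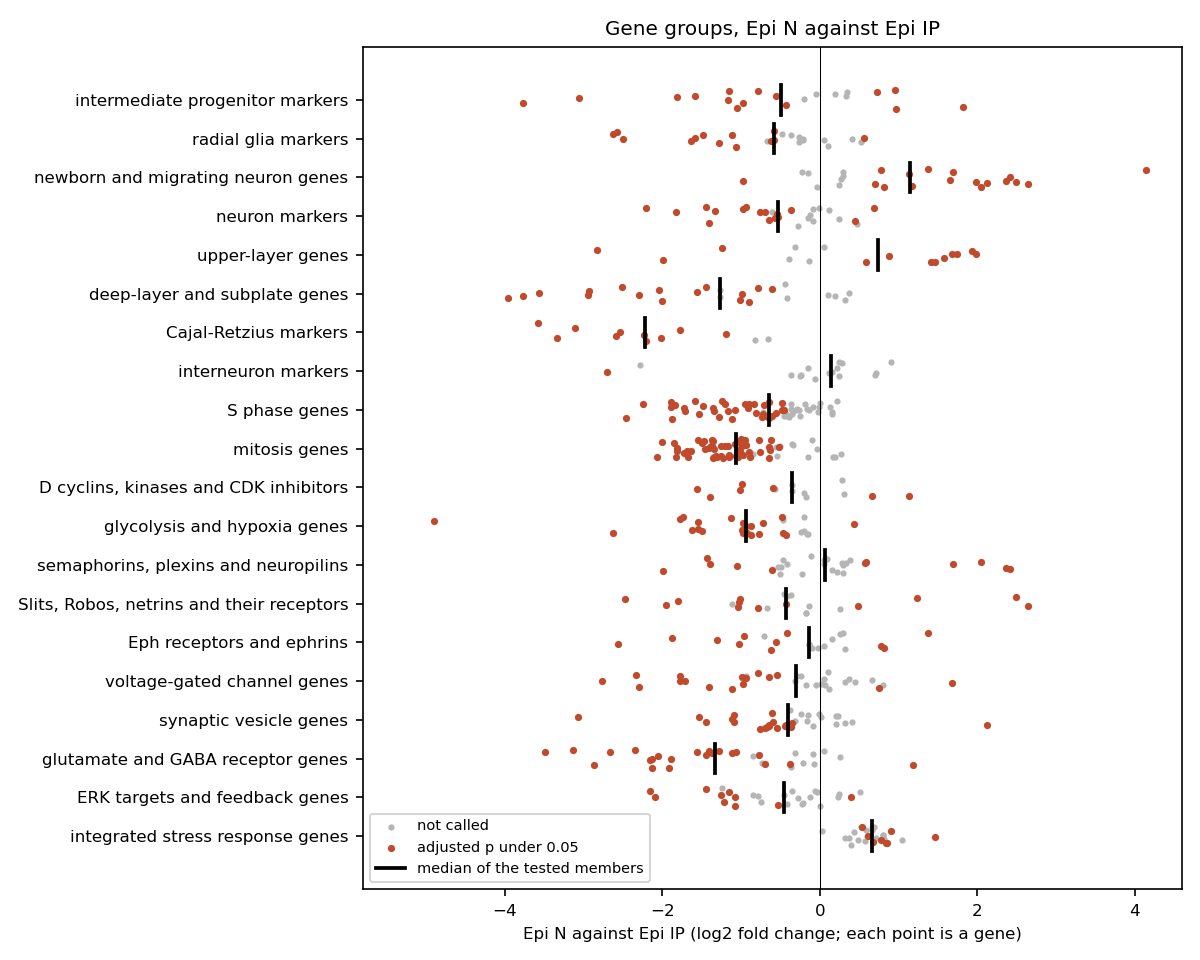
Log2 fold change of Epi_N against Epi_IP for the tested members of 20 gene groups (points, red where the adjusted p is under 0.05), with the median of each group as a black bar. Newborn and migrating neuron genes (median 1.15) and upper-layer genes (0.73) lie to the right of 0. Cajal-Retzius (-2.21), deep-layer (-1.27), glutamate and GABA receptor (-1.33) and mitosis genes (-1.07) lie to the left. The groups were chosen with earlier results of these data known.

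Within each family of guidance genes, called members went in both directions. Semaphorins, plexins and neuropilins summed to 2437 to 2676 CPM in Epi_IP and to 3475 to 3672 CPM in Epi_N. Eph receptors and ephrins summed to 1946 to 2066 CPM in Epi_IP and to 2340 to 2586 CPM in Epi_N. Both sums were higher in N without overlap. The sums of Slits, Robos, netrins and their receptors overlapped, at 1806 to 1824 CPM in Epi_IP and 1801 to 1887 CPM in Epi_N. Of 29 semaphorins, plexins and neuropilins 6 were higher in N and 5 lower (8 and 9 with the block), with a median of 0.07. The ligands Sema3a, Sema3c, Sema5b and Sema6d and the receptors Nrp1 and Plxna4 were higher, and Sema3f, Sema6a, Plxna1, Plxnd1 and Nrp2 were lower. The neuropilins thus moved in opposite directions: Nrp2 was at 76.4, 87.3 and 88.5 CPM in Epi_IP and at 37.3, 31 and 27.8 CPM in Epi_N, a log2 change of -1.39 ± 0.16 (adjusted p = 1.75e-06). Of 21 Slits, Robos, netrins and receptors 4 were higher and 8 lower (4 and 12 with the block, 4 and 5 with upper-quartile factors). Slit1, a repellent ligand, was at 175, 189 and 135 CPM in Epi_IP and at 29.3, 35.5 and 25.3 CPM in Epi_N, a log2 change of -2.47 ± 0.23 (adjusted p = 7.43e-08). Its receptor Robo2 was higher in N, as given above, while Robo1 was at 167, 186 and 198 CPM in Epi_IP and at 163, 183 and 153 CPM in Epi_N (adjusted p = 0.641). Of 21 Eph receptors and ephrins 3 were higher and 8 lower. Epha3 was at 222, 189 and 172 CPM in Epi_IP and at 515, 512 and 484 CPM in Epi_N, and Ephb1 at 234, 233 and 205 CPM in Epi_IP and 49.6, 28.3 and 36.1 CPM in Epi_N.

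Genes of excitability and synapses that passed were lower in N, with few exceptions. Of 32 glutamate and GABA receptor genes 22 were lower, 1 was higher (the AMPA receptor subunit Gria2) and 9 did not pass, with a median of -1.33. Gria2 was at 2044, 1960 and 2024 CPM in Epi_IP and at 4520, 4819 and 4402 CPM in Epi_N, a log2 change of 1.19 ± 0.11 (adjusted p = 9.27e-08). The summed level of the list therefore went the other way from its median, at 3713 to 3811 CPM in Epi_IP and 4863 to 5187 CPM in Epi_N. Grik3, a kainate receptor subunit, was at 147, 171 and 170 CPM in Epi_IP and at 20, 12.6 and 10.8 CPM in Epi_N, a log2 change of -3.49 ± 0.34 (adjusted p = 1.93e-07). Grin2b, an NMDA receptor subunit, was at 768, 621 and 537 CPM in Epi_IP and at 230, 192 and 97.7 CPM in Epi_N, with replicate 3 the lowest in both populations.

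Of 32 voltage-gated channel genes 14 were lower and 2 higher (16 and 5 with the block). Cacna1e, the R-type calcium channel, was at 272, 269 and 269 CPM in Epi_IP and at 50.2, 30.4 and 38.3 CPM in Epi_N, a log2 change of -2.77 ± 0.22 (adjusted p = 1.69e-08). Scn1a, a sodium channel, was at 26.8, 21.7 and 21.7 CPM in Epi_IP and at 76.7, 73.3 and 75 CPM in Epi_N, a log2 change of 1.68 ± 0.14 (adjusted p = 1.65e-08). Cacna2d1, the other channel gene that was higher in N, is an auxiliary calcium channel subunit. Of 32 synaptic vesicle genes 18 were lower and 1, Slc17a6, was higher, with a median of -0.40. Sv2b, a vesicle glycoprotein, was at 20.2, 33 and 31.4 CPM in Epi_IP and at 4.14, 2.79 and 3.12 CPM in Epi_N.

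Genes of the added factor's own pathway were examined next. Of 18 tested EGF family and ERBB genes 2 were lower in N, Lrig3 and the ligand Nrg3, and none was higher by the edgeR test. Over all genes tested 11.0% were called and 8.16% were lower in N, so 2 of 18 is near the general share. With the block 4 were lower. Egfr was at 1.3, 1.24 and 1.25 CPM in Epi_IP and at 1.72, 1.33 and 2.01 CPM in Epi_N, with a log2 fold change of 0.40 ± 0.28 that did not pass (adjusted p = 0.453). Erbb4 was at 7.06, 5.1 and 15.8 CPM in Epi_IP and at 7, 14.3 and 3.12 CPM in Epi_N; the libraries overlapped widely (adjusted p = 0.896). Erbb2, the shared co-receptor, was at 4.31, 2.84 and 3.6 CPM in Epi_IP and at 3, 2.96 and 1.21 CPM in Epi_N (adjusted p = 0.232), against 53.2 CPM in radial glia. Mouse Ereg was between 0.121 and 0.485 CPM in all 6 libraries (adjusted p = 0.797). The added protein is human and would leave no reads in these counts.

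ERK target and feedback genes were lower in N where they passed, with 1 exception. Of 27 members 9 were lower and 1, the stress phosphatase Dusp1, was higher, with a median of -0.45. With RLE factors no member was higher. Dusp6, the ERK phosphatase, was at 50.6, 50.8 and 53.5 CPM in Epi_IP, at 12.7, 11.2 and 12.6 CPM in Epi_N and at 7.42 CPM on average in treated radial glia, a log2 change of -2.09 ± 0.20 (adjusted p = 1.71e-07). Etv5, an ETS factor, was at 14.7, 20.2 and 23 CPM in Epi_IP, at 4.36, 3.63 and 5.02 CPM in Epi_N and at 81.3 CPM in radial glia, a log2 change of -2.16 ± 0.23 (adjusted p = 4.86e-07). These ERK targets thus stood in opposite order between radial glia and IP and in the same order between IP and N. Of 28 immediate early genes 10 were lower and 2 were higher. Fosl2, an AP-1 factor, was at 57.2, 66.3 and 72.8 CPM in Epi_IP and at 9.65, 9.33 and 11.5 CPM in Epi_N, and Nr4a3, an orphan nuclear receptor, at 107, 118 and 109 CPM in Epi_IP and 27.1, 20.2 and 22.3 CPM in Epi_N.

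**Figure D3:**
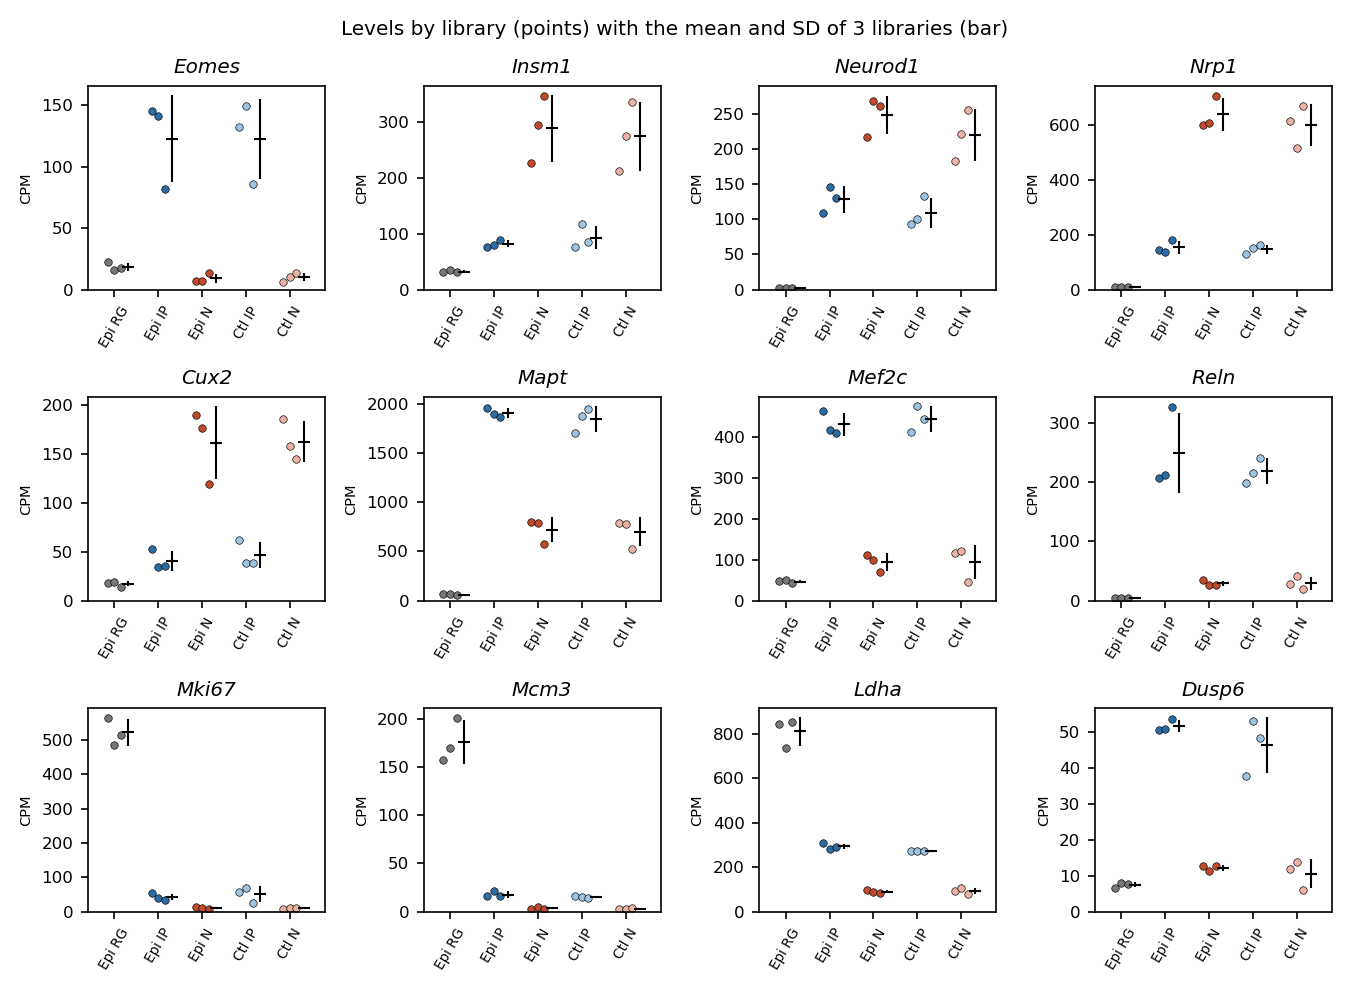
CPM by library for 12 genes in treated radial glia, IP and N and in control IP and N, with the mean and SD of 3 libraries beside the points. Dusp6 is at 50.6 to 53.5 CPM in Epi_IP and at 11.2 to 12.7 CPM in Epi_N, Mki67 and Mcm3 are far higher in radial glia than in either population, and no gene's step was called as different between treated and control cultures.

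Stress and metabolic lists were read in the same way. Of 26 integrated stress response genes 8 were higher in N and none was lower, with a median of 0.67. The count was 23 with the block, 15 with upper-quartile factors and 6 with RLE factors. The summed level was 2306, 2935 and 3757 CPM in Epi_IP and 3345, 4579 and 5423 CPM in Epi_N, so that the groups overlapped while every same-numbered pair was higher in N. In treated radial glia the sum was 5664 to 7130 CPM, above every Epi_N library. Ddit3 (CHOP) was at 70.2, 85.3 and 96.5 CPM in Epi_IP and at 113, 167 and 171 CPM in Epi_N, a log2 change of 0.84 ± 0.20 (adjusted p = 0.00732). Atf4, the central factor of this response, was at 242, 313 and 356 CPM in Epi_IP and at 359, 500 and 520 CPM in Epi_N, and its log2 fold change of 0.60 ± 0.21 passed with the block (adjusted p = 1.42e-05) and not without it (0.0702). Of 25 interferon and MHC class I genes 9 were lower in N and none higher. Tap1, a peptide transporter, was at 13.3, 10.9 and 7.68 CPM in Epi_IP and at 1.67, 0.884 and 1.11 CPM in Epi_N. Of 25 cholesterol synthesis genes 1, the feedback gene Insig1, was higher. Over all genes tested 2.80% were higher in N, so 1 of 25 is near the general share. None of the 13 mitochondrially encoded genes was called (3 higher with the block), and all mitochondrial genes together took 5.41% to 8.09% of counts in Epi_IP and 5.9% to 9.54% in Epi_N.

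Markers of cells other than neurons and their progenitors were low, and few passed. Over all genes tested 11.0% were called, and the few calls here are not read as a result about these markers. Of 15 endothelial markers 2 were lower in N (Ramp2 and Egfl7), and the summed level was 18.6 to 27.5 CPM in Epi_IP and 15.6 to 24.9 CPM in Epi_N. Of 11 mural markers 1 was lower (Notch3), and of 10 meningeal markers 1 was higher (Fn1; none with RLE factors). None of 14 macrophage and 8 oligodendrocyte precursor markers was called by edgeR, and macrophage markers summed to at most 10.1 CPM in any of the 6 libraries. Of 9 erythroid markers none was called and 2 were with the block. Embryonic globin Hbb-y was at 6.81, 0.133 and 7.04 CPM in Epi_IP and at 46.4, 8.58 and 22.1 CPM in Epi_N; the groups did not overlap, and the adjusted p was 0.0523, or 6.07e-06 with the block. It also passed with upper-quartile factors (0.045), in the compared groups alone (0.045), without the filter (0.00484) and without Epi_N replicate 2 (0.0322).

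The same step in control cultures was of like size and direction. In Ctl, 3035 genes were called (10.3%), 762 higher in N (2.60%) and 2273 lower (7.74%). Called in both were 2442 genes, 521 higher and 1921 lower, and none in opposite directions. They were 75.9% of the treated calls and 80.5% of the control calls. The treated and control steps share no library, but they share the replicate numbers, the scaling and the estimate of spread. Across the 11711 genes whose log2 CPM averaged 3 or more, the log2 fold changes had a Pearson r of 0.959 and a Spearman rho of 0.875. Over the 4368 genes with a mean from 1 to 3 the r was 0.879, over the 13276 genes under 1 it was 0.433, and over all 29355 genes 0.669. The points are genes, not replicates, and the values are descriptions. Among the treated calls 99.4% had the same sign in Ctl, against 74.6% of all genes tested and 83.5% of the 11711 genes of higher level. Over the treated calls the median ratio of the control to the treated log2 fold change was 0.93. That ratio is of genes chosen by the treated value, which favours treated values far from 0.

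**Figure D4:**
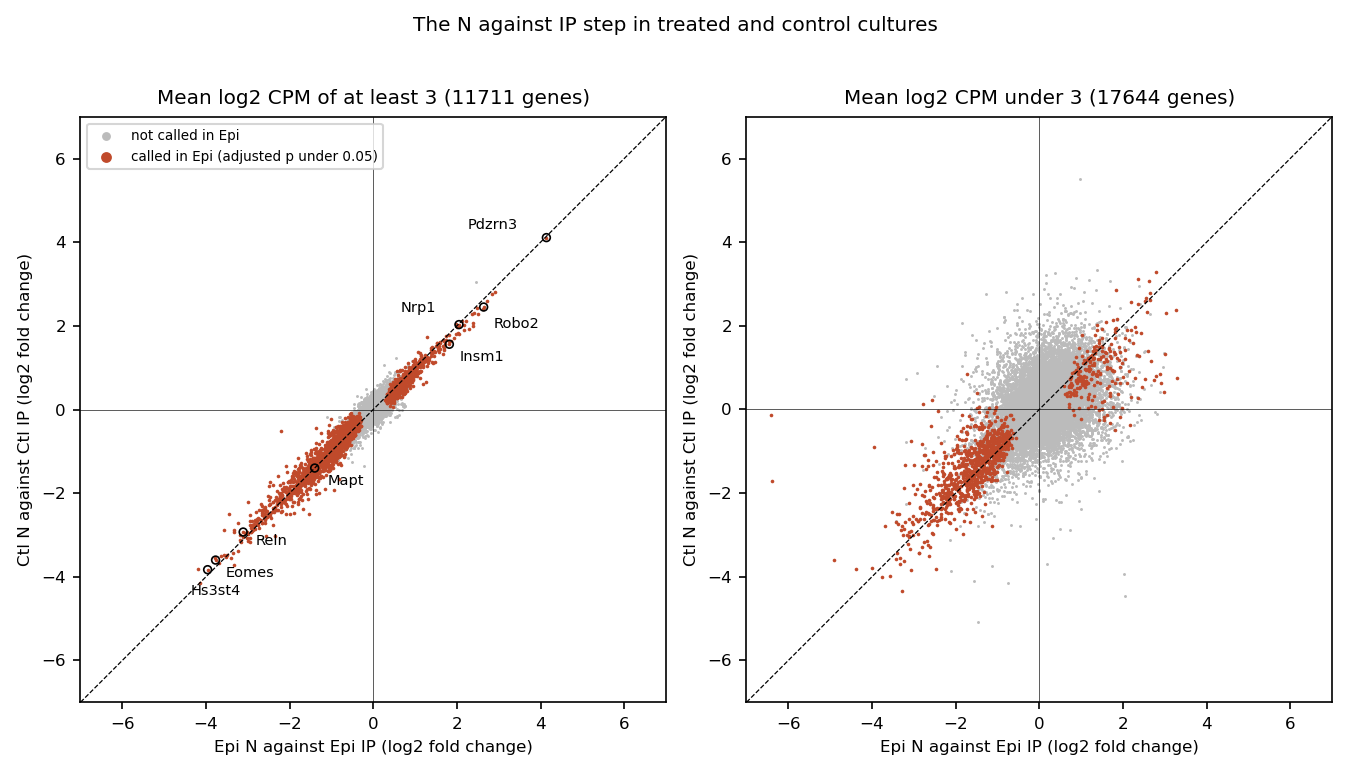
Log2 fold change of N against IP in Ctl (vertical) against Epi (horizontal), each point a gene, for the 11711 genes whose log2 CPM averaged 3 or more (left) and the other genes tested (right); red points were called in Epi and the dashed line is equality. Points at left lie along the line (r = 0.959) and spread around it at right.

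The genes named above showed the same step without the factor. All 24 largest changes were also called in Ctl, and 17 of the 24 were among the 24 named there by the same rule. Pdzrn3 was at 7.66, 5.95 and 7.84 CPM in Ctl_IP and at 112, 109 and 153 CPM in Ctl_N, a log2 change of 4.11 ± 0.19 (adjusted p = 1.15e-11), and the difference of the steps was 0.03 (95% interval -0.47 to 0.53). Eomes was at 132, 149 and 85.8 CPM in Ctl_IP and at 6.45, 10.3 and 13.3 CPM in Ctl_N, with replicate 3 again lowest in IP and highest in N, and the difference of the steps was -0.17 (-0.98 to 0.64). Dusp6 had a difference of 0.05 (-0.53 to 0.64) and Mki67 of 0.51 (-0.20 to 1.23). Over the 24 genes the differences ran from -1.30 for Adm (-3.06 to 0.46) to 0.61 for Sstr3 (-0.28 to 1.49), and the smallest unadjusted p was 0.0709, for Gabrd. By list, the counts called in Ctl were 55 of 64 lower for mitosis, 36 of 60 lower for S phase, 15 of 24 higher for newborn neuron genes, 16 of 24 lower for deep-layer genes and 9 of 26 higher for the stress response.

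A direct test found no gene whose step differed between treated and control cultures. None was called (0%) by edgeR or by DESeq2, at unadjusted p under 0.05 there were 512 genes by edgeR and 511 by DESeq2, and the smallest adjusted p was 1. The 512 are 1.74% of the genes tested, where 5% would be the share of uniform p-values, and among those 11711 genes of higher level the share was 0.179%. With the block the shares were 2.62% and 1.01%. This does not show that the steps were equal. Over the 3216 treated calls the median distance from the estimate to the end of its 95% interval was 0.61 on the log2 scale, and 2203 (68.5%) had intervals that lay within 1 log2 unit on either side of 0. With the block these were 0.51 and 2374 (73.8%). Of the 774 genes called in Epi and not in Ctl, 754 had the same sign in Ctl, 499 had an unadjusted p under 0.05 there, and 70 had a difference with an unadjusted p under 0.05.

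Among genes with an ordinary symbol whose log2 CPM averaged 1 or more over all libraries, the 10 with the smallest unadjusted p for the difference, none of which passed, were Nrarp, Cast, Cdc42ep1, Pdgfrb, Lfng, Prph, Col17a1, Dusp10, Sgo2a and Tmem132e, and all averaged under 5 CPM in the IP and N libraries. Nrarp, a feedback inhibitor of Notch signalling, was at 0.76, 0.665 and 0.849 CPM in Epi_IP and at 0.176, 0.0884 and 0.106 CPM in Epi_N. In control cultures it was at 0.479, 0.265 and 0.399 CPM in Ctl_IP and at 0.187, 0.554 and 0.648 CPM in Ctl_N. The pair differences were thus all below 0 in Epi and of mixed sign in Ctl, and the difference of the steps was -2.80 (95% interval -4.20 to -1.39, unadjusted p = 0.000461). Lfng, which modifies Notch receptors, had a difference of 1.44 (0.41 to 2.47, unadjusted p = 0.00819). Cast, which encodes the calpain inhibitor calpastatin, was at 3.22, 4.03 and 3.2 CPM in Epi_IP and at 2.16, 1.46 and 1.48 CPM in Epi_N, with control means of 3.34 CPM in IP and 3.45 CPM in N. Its difference was -1.07 (-1.70 to -0.45, unadjusted p = 0.00184). Dusp10, a phosphatase of stress kinases, had a difference of -0.78 (-1.37 to -0.19, unadjusted p = 0.0118). Sgo2a, a protector of centromeric cohesion, had a difference of -0.92 (-1.62 to -0.22, unadjusted p = 0.0122). Adjusted over the genes tested, each of the 10 had a p of 1.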

How the data were processed

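The authors deposited raw counts of reads per gene for each library. Per the submitters' processing notes, the tools were bcl2fastq 2.20.0, cutadapt 2.6 and featureCounts 2.0.1, and the build was GRCm39; the sources used here name no aligner. Per the labels' protocols, RNA was extracted with a kit meant for fixed and embedded tissue, and SmartSeq2 was the library method, which keeps no strand and no molecular identifiers, so PCR copies count as reads. The table held 55508 rows, of which 92 were spike-in sequences with 0 to 7 counts per library and were left out; 1492 genes lacked a symbol. The strand column held gene types and the reverse, and both were read by their content. Total counts ran from 15.47 to 34.16 M over the 18 libraries, from 24.1 to 30.11 M in Epi_IP and from 20.11 to 25.31 M in Epi_N, and no pair of libraries was identical.

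Genes passing filterByExpr of edgeR 4.0.16 (R 4.3.3) entered 1 quasi-likelihood fit of 6 group means over 18 libraries with TMM factors, and contrasts were two-sided with Benjamini-Hochberg adjustment over all genes tested. CPM are counts scaled to library size with TMM factors; summed levels of lists use plain library totals. Log2 fold changes are given ± SE. DESeq2 1.42.0, other scalings and filters, a robust fit, replicate blocks and leaving out each library were alternatives, and the fit was tested on simulated data. Library numbers pair the samples, but the main fit held no term for them, and only the replicate blocks used them. Deviations from group means correlated from 0.159 to 0.635 for same-numbered Epi_IP and Epi_N libraries. For other pairs of these libraries the range was -0.617 to 0.025 (11711 genes), and for same-numbered Ctl libraries 0.162 to 0.524.

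The naming rule took called genes with an ordinary symbol whose log2 CPM averaged 1 or more and whose groups did not overlap, and kept the 12 with the largest change upwards and downwards; where fewer than 10 are called, the 10 smallest p under the same limits on symbol and level, as not passing. Also named are up to 4 called members of each of 33 lists and a panel of 41 genes. Further list members were named after their values were seen, as examples. The comparison, lists and panel were chosen with earlier results of these data known. Promoters were read from GRCm39 with GENCODE starts. Some genes of these lists are not reported here.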

Additional observations from a re-analysis of the deposited data

How the results depend on the processing

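The direction of each followed gene that was called, and the absence of calls for the difference between treated and control steps (0 in each of the settings run, leaving out any library included), held under DESeq2, RLE and upper-quartile factors, a stricter and no filter on low counts, a robust fit, a fit of the compared groups alone and the replicate block. With the replicate block over all libraries the treated step had 4917 calls (1630 higher) and the control step 4652 (1548 higher), and with the replicate block in the compared groups alone the treated step had 6597 calls (2409 higher, 4188 lower). The block over all libraries ended no call of the treated step. Upper-quartile factors gave 1477 higher calls in Epi and 1157 in Ctl, and a fit of the Ctl groups alone gave 479 higher calls. Leaving out 1 library gave 2443 to 2817 treated calls, with 520 (without Epi_IP replicate 2) to 724 higher and 1922 to 2093 lower. The correlation of the steps over all genes was 0.959 with the filter at a mean log2 CPM of 3, 0.180 without a filter and 0.599 to 0.66 leaving out 1 library. Of 59 followed values, 48 were called, and 45 of these were called under every setting; the exceptions in Epi were Neurog2, Neurod2 and Bcl11b. The cause of these shifts was not tested, except that a filter or its absence changes which genes enter. The steps agreed least among genes with a mean log2 CPM under 1 (r = 0.433), where counts are lowest; the part of depth in this was not tested, and intervals do not cover PCR copying.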
